A study of Mus musculus with 9 samples.

Results

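The expression of 10 target genes of the tumour suppressor p53, namely Mdm2, Ccng1, Trp53inp1, Sesn2, Bax, Bbc3, Pmaip1, Gdf15, Eda2r and Zmat3, was measured in mouse muscle cells that had lost one or the other splice isoform of the histone variant macroH2A1. The genes were taken by name from 52780 genes in the count table, and all 10 passed the filter on low counts that left 19545 genes for testing. The question was whether loss of either isoform was accompanied by a DNA damage response, read here through these transcripts.

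The cells were C2C12, an immortal mouse myoblast line that fuses into multinucleated myotubes once serum is withdrawn. Small interfering RNAs (siRNAs) at 10 nM were delivered before, at and after the switch to differentiation medium, and polyA RNA was sequenced at day 4 of differentiation. There were 3 groups of 3 samples: control cells (si Ctrl; labelled wild type in the records, without a statement of the siRNA they received, while the study's methods describe a scrambled siRNA), cells depleted of macroH2A1.1 (si mH2A1.1) and cells depleted of macroH2A1.2 (si mH2A1.2). All 9 samples shared the same cell line, medium and day. Which of the siRNAs designed against each isoform was used for sequencing is not stated, so an effect of the isoform and an effect of a single siRNA sequence cannot be told apart. The study describes the samples of a group as independent biological replicates, and the p-values measure the spread between them.

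When DNA is damaged, kinases such as ATM and ATR lead to stabilisation of the p53 protein, which then binds response elements near its target genes and raises their transcription. The targets include feedback inhibitors of p53 itself, genes that halt the cell cycle or adjust metabolism, and genes that promote apoptosis. Because p53 is controlled largely at the protein level, its activity is commonly read from these transcripts rather than from Trp53 mRNA. In the p53 pathway, Cdkn1a (p21) is also a gene of normal muscle differentiation, where it holds myocytes out of the cell cycle. MacroH2A1.1 can bind ADP-ribose and its relatives through its macrodomain, whereas the macroH2A1.2 macrodomain cannot.

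A p53 response element is made of a pair of 10-base half-sites with a short spacer. In windows of 300 bases around RefSeq gene starts (250 bases before and 50 after, GRCm38.p6), which were at hand for 7 of the 10 genes, 3 held a match to the p53 half-site and 0 held a full element with a spacer of up to 13 bases. Over all 27025 genes with a window of this length, 9.55% held a half-site and 0.074% a full element. Among the 25 further p53 targets described below, 8 of 19 with a window held a half-site and 1 a full element. The half-site pattern reads the same on both strands. The 3 matches are shown with 10 bases on either side, because they are the only exact matches in the windows of the 7 genes. The capitals mark the half-site, and near matches were not searched for. A match is a description of the letters and was not tested for binding.
Mdm2, chr10:117710925-117710954, minus strand, 186 bases before the gene start: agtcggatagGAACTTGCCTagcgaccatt
Ccng1, chr11:40755452-40755481, minus strand, 185 bases before the gene start: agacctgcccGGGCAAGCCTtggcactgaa
Bax, chr7:45467080-45467109, minus strand, 201 bases before the gene start: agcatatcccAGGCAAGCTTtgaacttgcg

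The libraries held between 36924252 and 42223108 counts, and the 10 genes held from 366 counts (Gdf15) to 10274 counts (Ccng1) in a sample, so counting error was small beside the spread between samples. Levels are given below as CPM, the counts scaled to a common library total after TMM normalisation. H2afy, the gene that encodes both isoforms, stood at 56.3, 62.4 and 61.0 CPM in si Ctrl, at 38.8, 30.0 and 30.9 CPM in si mH2A1.1 and at 46.8, 47.2 and 43.2 CPM in si mH2A1.2. Both knockdown groups lay below control in all samples, by a log2 fold change of -0.85 (adjusted p = 0.00331) for si mH2A1.1 and of -0.39 (adjusted p = 0.108) for si mH2A1.2, of which the latter did not pass the test, and a gene-level count sums both isoforms. All 8 myotube markers checked passed the filter, with a summed level of 12300 to 18900 CPM. Of the markers of other cell types, 1 of 4 macrophage markers, 4 of 5 fibroblast markers and 2 of 3 endothelial markers passed it, and the fibroblast markers Col6a3 and Dcn stood at 961 to 1350 CPM and at 278 to 372 CPM in si Ctrl.

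In neither comparison with control did any of the 10 genes pass the test (edgeR quasi-likelihood test, Benjamini-Hochberg adjusted p below 0.05). For si mH2A1.1 the count was 0 of 10, where 11.1% of all tested genes passed; for si mH2A1.2 it was 0 of 10, where 2.35% of all tested genes passed. At an unadjusted p below 0.05 there were 2 genes with si mH2A1.1 (Bbc3 and Eda2r, both lower; 29.6% of all genes) and 3 with si mH2A1.2 (Trp53inp1, Sesn2 and Zmat3, all higher; 15.9% of all genes). DESeq2 called 1 gene in each comparison. These were Bbc3, lower with si mH2A1.1 (adjusted p = 0.0365; 16.7% of the genes to which DESeq2 gave an adjusted p), and Zmat3, higher with si mH2A1.2 (adjusted p = 0.0446; 6.24%). The values of the genes leaned in different directions. With si mH2A1.1, 3 fold changes were above 0 and 7 below, the median log2 fold change being -0.189 against -0.00908 over all genes. With si mH2A1.2, 8 were above 0 and 2 below, with a median of 0.197 against -8.35e-05 over all genes. The same 8 genes (Mdm2, Ccng1, Trp53inp1, Sesn2, Bax, Bbc3, Eda2r and Zmat3) were higher than the same-numbered control in 3 of 3 pairs, as were 25.1% of all genes. Both comparisons share the si Ctrl samples. Groups did not overlap for 2 of the 10 genes with si mH2A1.1 (Eda2r and Zmat3, both lower; 16.7% of all genes in that direction) and for 2 with si mH2A1.2 (Sesn2 and Eda2r, both higher; 11.7% in that direction).

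Set directly against each other, the knockdowns differed. Between si mH2A1.1 and si mH2A1.2, 5 of the 10 genes passed the test, where 22.5% of all tested genes passed in either direction and 10.5% in the direction of lower in si mH2A1.1. Trp53inp1 (chromosome 4, 11156431 to 11174379), Sesn2 (chromosome 4, 132492032 to 132510501), Bbc3 (chromosome 7, 16308393 to 16318205), Eda2r (chromosome X, 97333840 to 97377216) and Zmat3 (chromosome 3, 32334792 to 32366014; all mm10, GENCODE M21) were all lower in si mH2A1.1 than in si mH2A1.2, and for each of these 5 genes the 3 samples of one group lay below the 3 of the other (19.4% of all genes). Under a rule that also asked for an adjusted p below 0.01 and a change of 0.8 log2 units or more, 1 remained, Zmat3 (6.38% of all genes). The median log2 fold change of the 10 genes was -0.344, against -0.00906 over all genes. The summed level of the 10 genes was 716 to 790 CPM in si Ctrl, 676 to 800 CPM in si mH2A1.1 and 846 to 945 CPM in si mH2A1.2, so the si mH2A1.2 samples lay above the other groups.

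**Figure D1:**
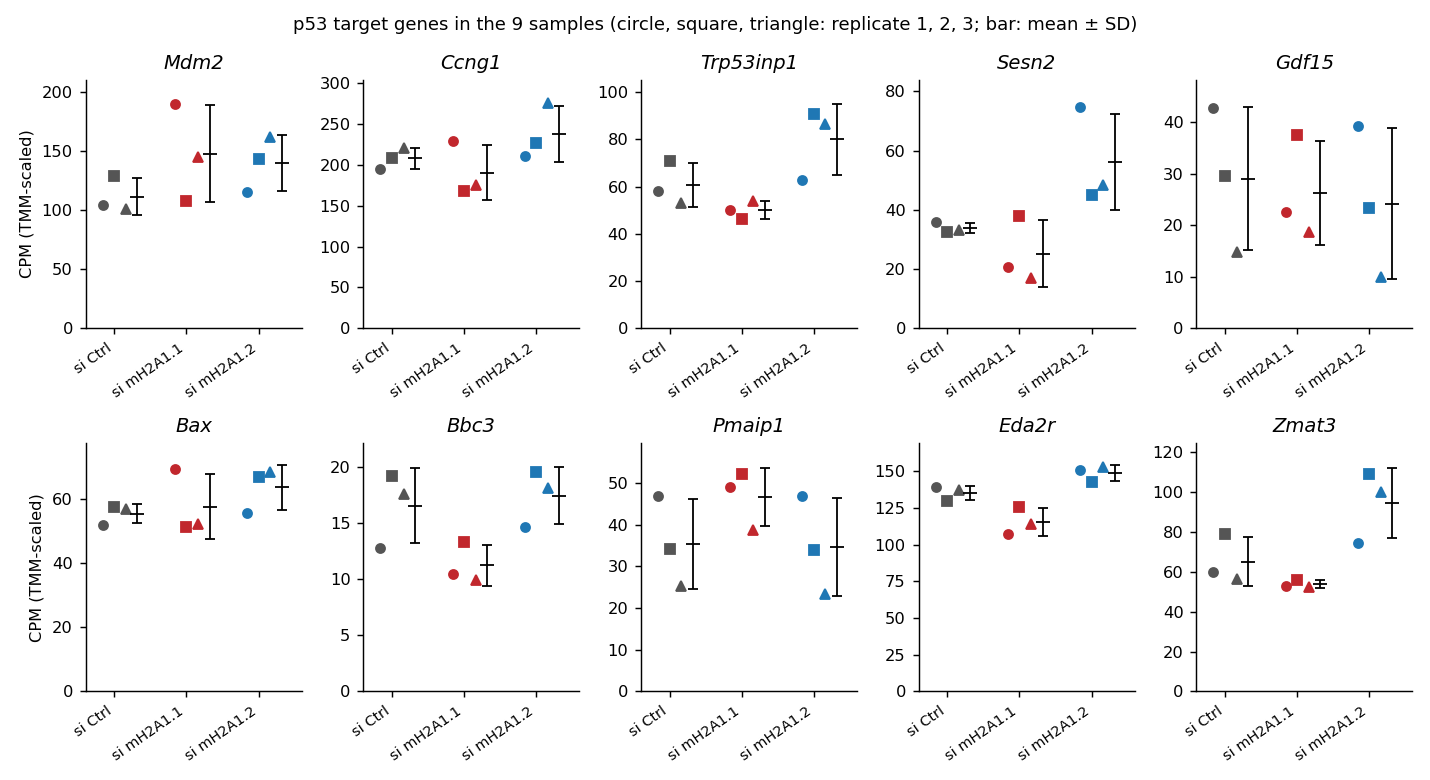
Level of each of the 10 p53 target genes (CPM after TMM scaling, axis from 0) in the 9 samples, with circles, squares and triangles for replicates 1, 2 and 3 and the mean with its SD beside them. Sesn2, Zmat3 and Eda2r sit lower in si mH2A1.1 than in si mH2A1.2 in every sample, whereas Gdf15 spreads as widely within each group as between groups.

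Mdm2 encodes the ubiquitin ligase that targets p53 for degradation, and its transcription by p53 closes a negative feedback loop. It stood, for replicates 1, 2 and 3 in this order as below, at 104, 129 and 101 CPM in si Ctrl, at 190, 108 and 145 CPM in si mH2A1.1 and at 115, 143 and 162 CPM in si mH2A1.2. The groups overlapped, since replicate 2 of si mH2A1.1 lay within the control range while replicate 1 was the highest of the 9 samples. The log2 fold change from control was 0.40 with si mH2A1.1 (95% interval -0.04 to 0.85, adjusted p = 0.204) and 0.33 with si mH2A1.2 (-0.11 to 0.77, adjusted p = 0.467).

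Ccng1 encodes cyclin G1, a partner of protein phosphatase 2A that acts on Mdm2, and was the most abundant of the 10 genes per kilobase of exon. It stood at 195, 208 and 221 CPM in si Ctrl, at 229, 168 and 175 CPM in si mH2A1.1 and at 211, 227 and 276 CPM in si mH2A1.2. All groups overlapped, and the log2 fold changes were -0.13 (-0.44 to 0.19) with si mH2A1.1 and 0.20 (-0.12 to 0.51) with si mH2A1.2. Between the knockdowns the value was -0.32 (adjusted p = 0.133), and it passed the test without replicate 1 of si mH2A1.1, the highest of its group (-0.48, adjusted p = 0.0415).

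Of the genes that act on stress, autophagy and metabolism, Trp53inp1 encodes a nuclear protein that enhances p53 activity and also takes part in autophagy. It stood at 58.2, 70.9 and 52.9 CPM in si Ctrl, at 50.1, 46.4 and 54.0 CPM in si mH2A1.1 and at 62.8, 90.7 and 86.5 CPM in si mH2A1.2. The knockdown groups did not overlap each other and both overlapped control. Its log2 fold change was -0.67 between si mH2A1.1 and si mH2A1.2 (SE 0.15, adjusted p = 0.0122), against -0.27 (adjusted p = 0.256) and 0.40 (adjusted p = 0.228) from control. Without replicate 2 of si mH2A1.2 the direct difference was -0.58 (adjusted p = 0.0553), in a fit where 11.2% of all genes passed, against 22.5% with all samples.

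Sesn2 encodes sestrin 2, a stress-induced leucine sensor that restrains mTORC1, and it is a known target of ATF4 as well as of p53. It stood at 35.7, 32.5 and 33.2 CPM in si Ctrl, at 20.5, 38.0 and 17.0 CPM in si mH2A1.1 and at 74.7, 45.1 and 48.5 CPM in si mH2A1.2. The 3 si mH2A1.2 samples lay above all others, and within si mH2A1.1 replicate 2 stood at the control level while the other samples were the lowest of the 9. Between the knockdowns the log2 fold change of Sesn2 was -1.16 (SE 0.28, adjusted p = 0.0161), the largest difference among the 10 genes. From control it was -0.42 (adjusted p = 0.337) with si mH2A1.1 and 0.73 (adjusted p = 0.225) with si mH2A1.2. This gene depended on single libraries: without replicate 2 of si mH2A1.1 it was lower than control (-0.85, adjusted p = 0.0275), and the direct difference did not pass without replicate 1 (-1.03, adjusted p = 0.0696) or replicate 3 (-0.94, adjusted p = 0.0539) of si mH2A1.1. Sesn2 overlaps a predicted gene, Gm12981, which held 2 to 11 counts in a sample.

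Gdf15 encodes a secreted cytokine of the TGF-beta superfamily that p53 and the integrated stress response both induce. It stood at 42.7, 29.6 and 14.8 CPM in si Ctrl, at 22.5, 37.6 and 18.6 CPM in si mH2A1.1 and at 39.2, 23.4 and 9.83 CPM in si mH2A1.2. The range within control was as wide as that over all samples but for replicate 3 of si mH2A1.2. The intervals of its log2 fold change were the widest of the 10 genes, from -1.22 to 0.92 with si mH2A1.1 and from -1.34 to 0.81 with si mH2A1.2, so that neither a rise nor a fall could be read at this spread.

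The apoptosis genes were Bax, Bbc3 and Pmaip1. Bax encodes a pore-forming protein of the mitochondrial outer membrane. It stood at 51.9, 57.3 and 56.8 CPM in si Ctrl, at 69.1, 51.3 and 52.1 CPM in si mH2A1.1 and at 55.6, 66.8 and 68.2 CPM in si mH2A1.2. The groups overlapped, and the log2 fold change was 0.06 (-0.23 to 0.35, adjusted p = 0.811) and 0.20 (-0.09 to 0.49, adjusted p = 0.507) from control.

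Bbc3 encodes PUMA, a BH3-only protein that binds the anti-apoptotic members of the BCL2 family. It stood at 12.8, 19.2 and 17.6 CPM in si Ctrl, at 10.4, 13.3 and 9.95 CPM in si mH2A1.1 and at 14.6, 19.5 and 18.1 CPM in si mH2A1.2. In si mH2A1.1 it lay below the same-numbered control sample in 3 of 3 samples, with overlap only between replicate 2 of si mH2A1.1 and replicate 1 of si Ctrl. The log2 fold change was -0.56 (SE 0.18, adjusted p = 0.0727) from control with si mH2A1.1 and 0.07 (adjusted p = 0.891) with si mH2A1.2. Between the knockdowns Bbc3 was lower in si mH2A1.1 by a log2 fold change of -0.64 (SE 0.18, adjusted p = 0.0324). Both calls changed with single libraries, while the log2 fold changes ranged from -0.72 to -0.44 and from -0.78 to -0.55. The fall from control passed the test without replicate 1 of si Ctrl (adjusted p = 0.0392) or replicate 2 of si mH2A1.1 (adjusted p = 0.0418). The direct difference did not pass without replicate 1 (0.104) or 3 (0.109) of si mH2A1.1, or replicate 2 (0.118) or 3 (0.0828) of si mH2A1.2. In these last fits 11.2% to 14.7% of all genes passed, against 22.5% with all samples.

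Pmaip1 encodes NOXA, another BH3-only protein. It stood at 46.8, 34.2 and 25.3 CPM in si Ctrl, at 49.1, 52.1 and 38.7 CPM in si mH2A1.1 and at 46.8, 33.9 and 23.3 CPM in si mH2A1.2. The si Ctrl and si mH2A1.2 samples of the same number stood at nearly the same level. The log2 fold change was 0.40 (-0.19 to 0.98, adjusted p = 0.344) with si mH2A1.1 and -0.03 (-0.62 to 0.55, adjusted p = 0.972) with si mH2A1.2. Thus the BH3-only genes leaned in opposite directions with si mH2A1.1, with Bbc3 below and Pmaip1 above control, and neither passed the edgeR test fitted without a replicate block.

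Eda2r encodes the receptor of the A2 form of ectodysplasin, a TNF receptor family member. It stood at 139, 130 and 137 CPM in si Ctrl, at 107, 126 and 114 CPM in si mH2A1.1 and at 151, 143 and 153 CPM in si mH2A1.2. The 3 groups did not overlap, with si mH2A1.1 the lowest and si mH2A1.2 the highest, although the steps were small. From control the log2 fold change was -0.23 (SE 0.09, adjusted p = 0.112) and 0.14 (SE 0.09, adjusted p = 0.51). Between the knockdowns it was -0.37 (SE 0.09, adjusted p = 0.0162). That difference did not pass without replicate 1 (adjusted p = 0.0553) or 3 (0.0575) of si mH2A1.1, or replicate 3 of si mH2A1.2 (0.0509). In these fits 12.0% to 14.7% of all genes passed, against 22.5% with all samples.

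Zmat3 encodes a zinc finger RNA-binding protein that regulates splicing and mRNA stability. It stood at 59.8, 79.0 and 56.2 CPM in si Ctrl, at 53, 56 and 52.2 CPM in si mH2A1.1 and at 74.7, 109 and 100 CPM in si mH2A1.2. The si mH2A1.1 samples were the 3 lowest and were close together, and only replicate 1 of si mH2A1.2 lay within the control range. Between the knockdowns the log2 fold change was -0.82 (SE 0.16, adjusted p = 0.00617), and Zmat3 was the only one of the 10 genes that passed this comparison without each of the 9 libraries in turn. From control it was 0.54 with si mH2A1.2 (SE 0.16, 95% interval 0.19 to 0.89, adjusted p = 0.115), higher in 3 of 3 same-numbered pairs. With the replicate number as a block, Zmat3 passed the test (adjusted p = 0.0389), and it was then 1 of 10 genes where 5.14% of all genes passed. Same-numbered samples of si Ctrl and si mH2A1.2 deviated together, though no shared batch is named.

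**Figure D2:**
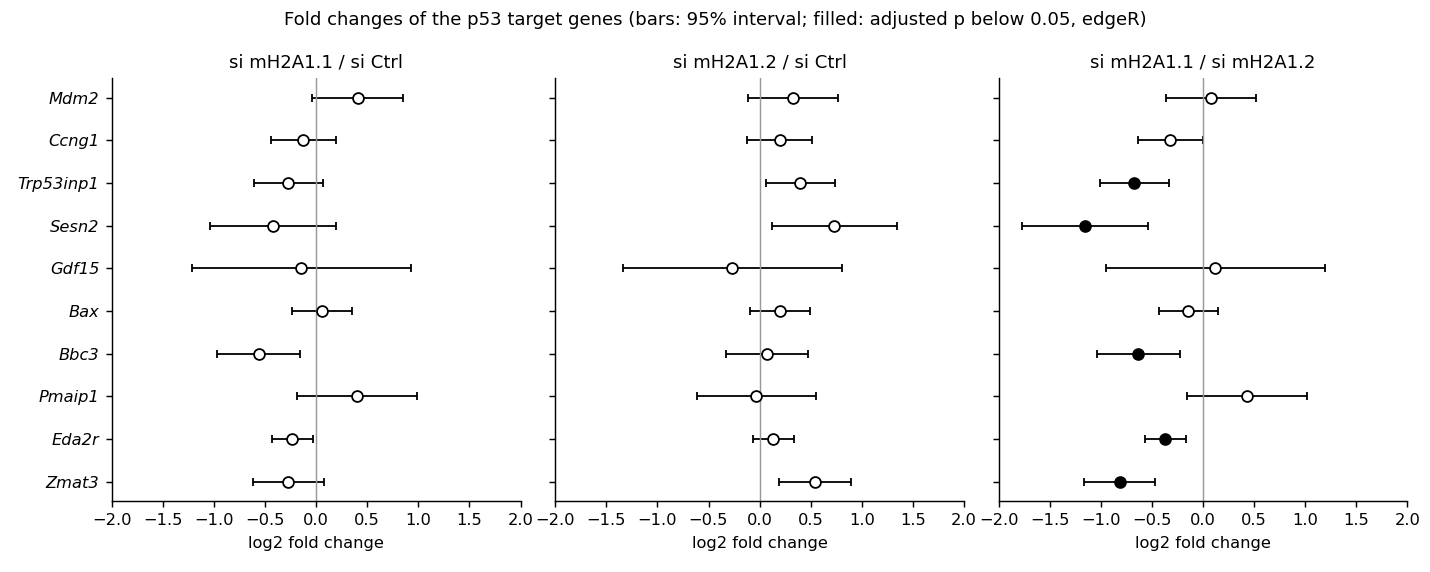
Log2 fold change of the 10 genes with its 95% interval in the 3 comparisons, filled where the adjusted p was below 0.05. No point is filled in the comparisons with si Ctrl, and 5 are filled, all below 0, between the knockdowns.

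The genes differed in level per length. In si Ctrl, Ccng1 stood at 59.2 CPM per kilobase of exon, Bax at 35.1, Eda2r at 23.0, Mdm2 at 21.9, Gdf15 at 15.7, Pmaip1 at 13, Sesn2 at 9.73, Trp53inp1 at 9.37, Bbc3 at 7.78 and Zmat3 at 5.68. Ccng1 and Bax each stood above the next gene by more than the sum of their SDs, and from Eda2r downward no neighbours in this order did.

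Trp53 mRNA stood at 75.3 to 75.8 CPM in si Ctrl, at 70.2 to 84.0 CPM in si mH2A1.1 and at 77.9 to 80.5 CPM in si mH2A1.2. The log2 fold change of Trp53 was 0.04 (-0.15 to 0.23) and 0.06 (-0.13 to 0.25) from control, narrower intervals than those of the 10 genes. Among the regulators of p53, 11 of 13 listed genes were tested. With si mH2A1.1, 1 of the 11 was called, where 11.1% of all genes were: Mdm4, which encodes an Mdm2 partner that inhibits p53, stood at 256, 236 and 225 CPM in si Ctrl and at 129, 186 and 168 CPM in si mH2A1.1 (log2 fold change -0.57, adjusted p = 0.0261). With si mH2A1.2, 1 of the 11 was called, where 2.35% of all genes were: Trp63, a paralogue of p53, was higher (0.78, adjusted p = 0.0382). The Mdm4 call did not hold without any 1 of the 3 si Ctrl samples or without replicate 1 or 3 of si mH2A1.1 (adjusted p from 0.0561 to 0.0784). The Trp63 call held only without replicate 1 of si mH2A1.1 (otherwise 0.0507 to 0.114). In the fits where it did not hold, 0.367% to 1.93% of all genes were called, against 2.35% with all samples. Between the knockdowns 2 of the 11 were called, where 22.5% of all genes were: Mdm4 and Atr, the latter a damage kinase, were lower in si mH2A1.1. The Mdm4 call held without each library in turn. That of Atr did not hold without replicate 1 (12.0% of all genes) or 2 (23.0%) of si mH2A1.1 or replicate 3 of si mH2A1.2 (14.7%). Cdkn2a, whose Arf product restrains Mdm2, had 0 counts in all 9 samples, with 3 counts corresponding to 0.0691 to 0.0826 CPM.

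A list of 25 further p53 targets was also read, all of them tested. Cdkn1a stood at 488, 574 and 747 CPM in si Ctrl, at 762, 703 and 688 CPM in si mH2A1.1 and at 741, 758 and 1100 CPM in si mH2A1.2. Both knockdowns overlapped control, with log2 fold changes of 0.25 (adjusted p = 0.405) and 0.52 (adjusted p = 0.203). Cdkn1a was higher in si mH2A1.2 than in control in 3 of 3 same-numbered pairs; its adjusted p was 0.094 with the replicate block and 0.0101 with the block in DESeq2, the only alternative on the adjusted scale in which it passed. After macroH2A1.1 depletion, 5 of 25 were called (11.1% of all genes), 3 higher and 2 lower. Cyfip2, an actin regulator, rose by 1.19 on the log2 scale (adjusted p = 0.00706). Perp, a desmosome protein, rose by 1.25 (adjusted p = 0.0291) from 10 to 21 counts to 36 to 41 counts, and Phlda3, an inhibitor of AKT, rose by 0.48 (adjusted p = 0.0262). Dram1, a lysosomal regulator of autophagy, fell by 0.94 (adjusted p = 0.00642) and Gadd45a, a DNA damage inducible growth arrest gene, fell by 0.54 (adjusted p = 0.0332). The calls of Cyfip2 and Dram1 held without each library in turn. Those of Phlda3 and Gadd45a did not hold without any 1 of the si Ctrl samples or without replicate 1 or 3 of si mH2A1.1 (adjusted p from 0.0513 to 0.114). Perp lost its call without replicate 1 or 3 of either group (0.072 to 0.0912).

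With si mH2A1.2, 1 of the 25 further targets was called (2.35% of all genes). This was Fas, the death receptor, at 5.11, 6.34 and 5.05 CPM in si Ctrl and at 9.44, 10.6 and 9.45 CPM in si mH2A1.2 (log2 fold change 0.84, adjusted p = 0.0202). It did not pass without replicate 1 or 3 of si Ctrl or replicate 1 or 2 of si mH2A1.2 (0.0586 to 0.0843). Between the knockdowns 10 of 25 were called (22.5% of all genes), and 6 without replicate 3 of si mH2A1.1. Tigar and Cyfip2 were higher in si mH2A1.1, and Sesn1, Fas, Ddb2, Xpc, Apaf1, Polk, Dram1 and Ephx1 were lower. Fas, Apaf1, Tigar, Dram1, Cyfip2 and Ephx1 passed this comparison without each library in turn. The other calls did not hold without some single libraries. The share of all genes called was also lower in these fits, at 11.2% to 20.9%, apart from 23.0% without replicate 2 of si mH2A1.1. Sesn1 did not pass without replicate 1 or 3 of si mH2A1.1 or replicate 2 or 3 of si mH2A1.2, Xpc without replicate 1 or 3 of si mH2A1.1 or replicate 3 of si mH2A1.2, and Polk without any 1 of the si mH2A1.1 samples or without replicate 2 or 3 of si mH2A1.2. Ddb2 did not pass without any 1 of the si Ctrl samples, replicate 1 or 3 of si mH2A1.1 or replicate 1 or 2 of si mH2A1.2.

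**Figure D3:**
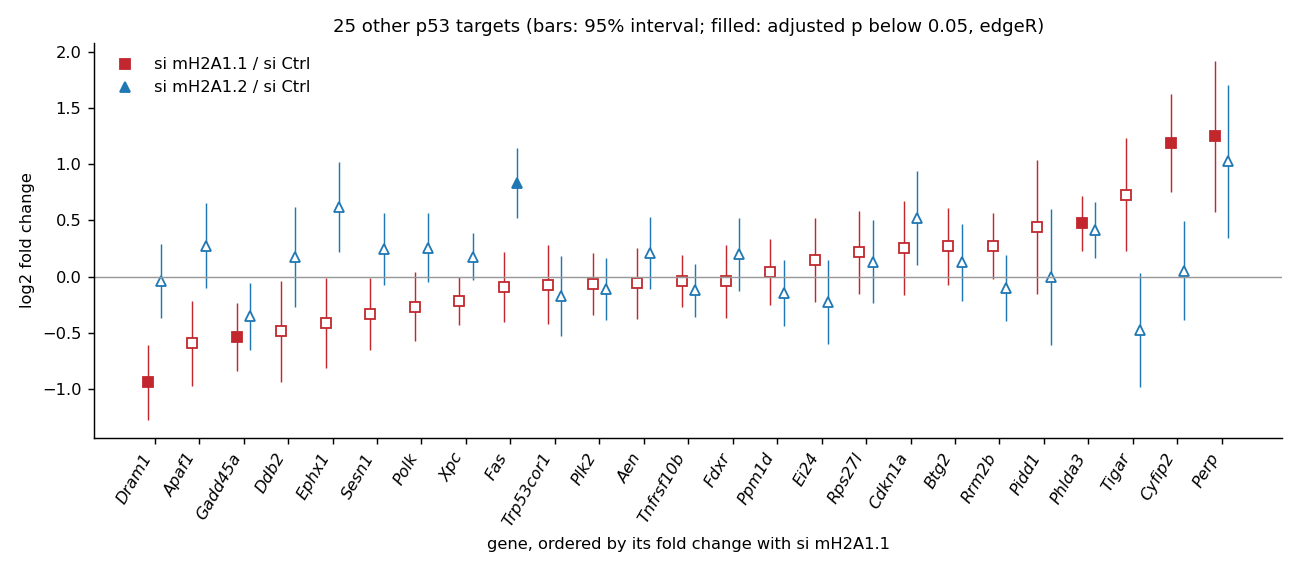
Log2 fold change from si Ctrl with its 95% interval for 25 further p53 targets, squares for si mH2A1.1 and triangles for si mH2A1.2, filled where the adjusted p was below 0.05. With si mH2A1.1 3 filled points lie above 0 and 2 below, and with si mH2A1.2 the filled point is Fas.

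The partners of Bax, Bbc3 and Pmaip1 in the BCL2 family were also read, with 11 of 12 tested. With si mH2A1.1, 4 of the 11 were called (11.1% of all genes). Bid, a BH3-only protein that death receptors activate, rose from 39.7, 34.9 and 51.4 CPM to 105, 69.5 and 96.9 CPM (log2 fold change 1.11, adjusted p = 0.00686), and Bok (0.59, adjusted p = 0.0428) and the anti-apoptotic Bcl2 (0.64, adjusted p = 0.0353) also rose. Bmf, a further BH3-only gene, fell from 18.7, 27.7 and 24.5 CPM to 8.1, 13.5 and 10.5 CPM (-1.15, adjusted p = 0.0159). With si mH2A1.2 the anti-apoptotic Bcl2l2 alone was called (0.50, adjusted p = 0.0291; 2.35% of all genes). Between the knockdowns 7 of the 11 were called (22.5% of all genes), 5 higher and 2 lower in si mH2A1.1. Of the calls against control, Bid alone held without each library in turn. Bmf did not pass without replicate 2 or 3 of si Ctrl or replicate 1 or 3 of si mH2A1.1 (0.0515 to 0.0661), and leaving out single libraries, including each si Ctrl sample, ended the calls of Bok (0.0617 to 0.135), Bcl2 (0.0571 to 0.124) and Bcl2l2 (0.0535 to 0.121).

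Other programmes moved in the same samples, and their part in the values of the 10 genes was not tested. The 12 listed genes of the ATF4 and CHOP stress response, which also drives Sesn2, had a summed level of 1740, 1520 and 1320 CPM in si Ctrl, of 927, 1790 and 897 CPM in si mH2A1.1 and of 1940, 1490 and 1380 CPM in si mH2A1.2. Replicate 2 of si mH2A1.1 was the sample at the control level in this list, as it was for Sesn2. With edgeR 0 of the 12 were called against control with si mH2A1.1 (11.1% of all genes) and 0 with si mH2A1.2 (2.35%). At an unadjusted p below 0.05 there were 2 (29.6% of all genes) and 0 (15.9%). Without replicate 2 of si mH2A1.1 the count of calls with si mH2A1.1 was 5 (14.6% of all genes). The smallest adjusted p belonged to Atf3 (log2 fold change 1.00, adjusted p = 0.0938; called by DESeq2, adjusted p = 0.0295) and Ppp1r15a (-0.23, adjusted p = 0.149) with si mH2A1.1. Between the knockdowns 3 of the 12 were called (22.5% of all genes). This count was 9 without replicate 2 (23.0% of all genes) and 0 without replicate 1 (12.0%) of si mH2A1.1. It was 1 without replicate 2 (11.2%) or 3 (14.7%) of si mH2A1.2. The 12 cell cycle genes that p21 and the DREAM complex repress summed to 552, 446 and 355 CPM in si Ctrl, to 1060, 509 and 716 CPM in si mH2A1.1 and to 401, 275 and 304 CPM in si mH2A1.2. All 12 were higher in si mH2A1.1 than in si mH2A1.2, as were 49.1% of all genes. By edgeR, 2 (Plk1 and Birc5) were called against control with si mH2A1.1 (11.1% of all genes). This count was 8 with DESeq2 (16.7%). It was 7 without the filter on low counts, where the share of all genes was below 11.1%. The count also moved with single libraries. It was 10 without replicate 2 of si mH2A1.1 (14.6%) and 1 without replicate 1 of si Ctrl. It was 0 without replicate 1 or 3 of si mH2A1.1 or replicate 2 or 3 of si Ctrl. It was also 0 without replicate 2 or 3 of si mH2A1.2. In the fits with 1 or 0 the share of all genes was below 11.1%. The 10 interferon-stimulated genes summed to 32.6 to 39.9 CPM in si Ctrl. Their sum was 277, 147 and 585 CPM in si mH2A1.1 and 29.0 to 47.3 CPM in si mH2A1.2. In si mH2A1.1, 10 of 10 were called higher than control, where 11.1% of all genes were called in either direction. Among them were Oas2, Irf7, Ifit1, Usp18 and Isg15 (log2 fold change 3.81, adjusted p = 0.00245).

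Cell type markers shifted as well. The 5 fibroblast markers summed to 1280 to 1740 CPM in si Ctrl and to 929 to 1600 CPM in si mH2A1.1. In si mH2A1.2, where Zmat3, Sesn2 and Eda2r were also highest, the sum was 2050 to 3060 CPM. Col6a3 and Dcn carried this sum. Thy1 did not move with si mH2A1.2 (log2 fold change -0.004, mean 0.509 CPM), and Tcf21 held 0 to 2 counts in a sample. With edgeR 0 of the 4 tested were called against control with si mH2A1.2 (2.35% of all genes). At an unadjusted p below 0.05, 3 of them passed (15.9% of all genes). Of these, Col6a3 (log2 fold change 0.87, adjusted p = 0.0847) passed with the replicate block (0.0406) and with DESeq2 (0.00493). The 4 macrophage markers summed to 2.86 to 4.05 CPM in si Ctrl and to 6.10 to 11.4 CPM in si mH2A1.1, carried by the lysosomal gene Cd68. Of the 8 myotube markers, 1 was called with si mH2A1.1 (11.1% of all genes), Myog, which was lower (-0.66, adjusted p = 0.0204). There 2 fold changes were above 0 and 6 below. The 2 were Des (0.45) and Ckm (0.44), above control in every sample without passing the test. With si mH2A1.2, 2 were called (2.35% of all genes), Tnnt3 (-0.96, adjusted p = 0.028) and Des (-0.62, adjusted p = 0.0466), both lower. Of the 4 myoblast markers, 1 was called with si mH2A1.2, Myf5, which was lower (-0.84, adjusted p = 0.0422). In that list 2 fold changes were below 0 and 2 above, Id1 (0.63, adjusted p = 0.176) and Id3 (0.36, adjusted p = 0.614). The part of these shifts in the values of the 10 genes was not tested. In bulk RNA, fewer cells of a type and less RNA per cell cannot be told apart.

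**Figure D4:**
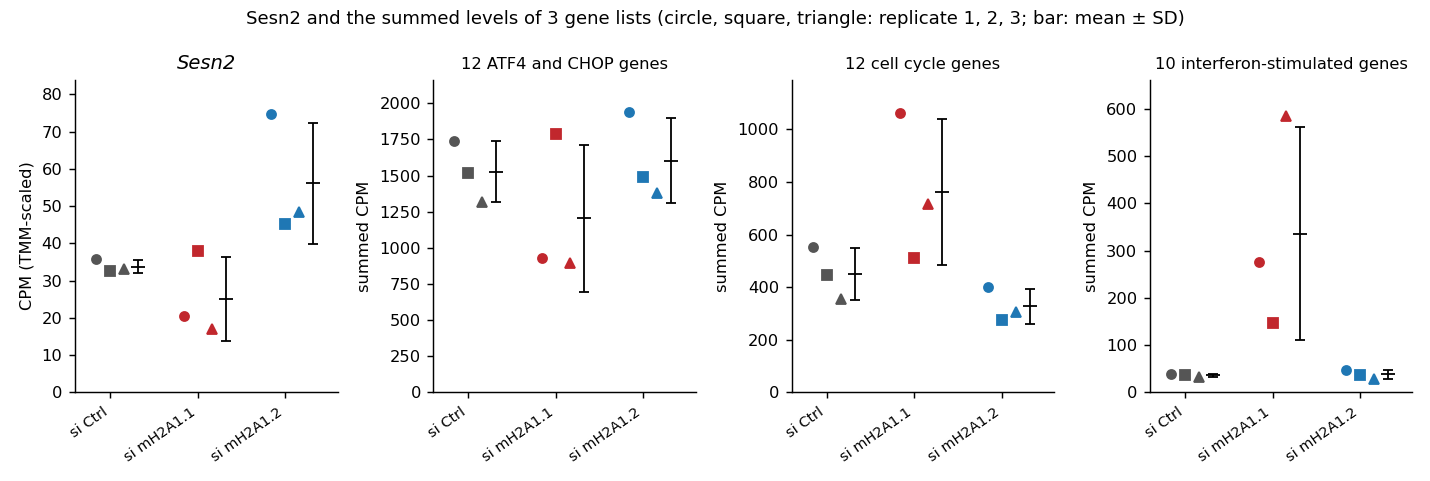
Sesn2 (CPM) and the summed CPM of 12 ATF4 and CHOP genes, 12 cell cycle genes and 10 interferon-stimulated genes in the 9 samples, with circles, squares and triangles for replicates 1, 2 and 3 and the mean with its SD. Replicate 2 of si mH2A1.1 (square) stands at the control level for Sesn2 and the ATF4 and CHOP genes, apart from the other samples of its group.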

How the data were processed

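PolyA RNA of 9 samples was sequenced as single 50-base reads. Per the labels, the authors quantified reads with Salmon in quasi-mapping mode (mm10, the GRCm38 assembly). The deposited table holds their estimated counts per Ensembl gene, which were used as given. A second deposited table holds a signal, the authors' counts divided by 1 size factor per sample, and was only used to check this. Symbols and positions came from GENCODE M21 (18 of 52780 identifiers had none there).

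All genes were fitted in 1 model of 9 samples with edgeR 4.0.16 (quasi-likelihood, TMM, filterByExpr) in R 4.3.3, with Benjamini-Hochberg adjustment over 19545 genes and a call at an adjusted p below 0.05. Standard errors and 95% intervals were derived from the F statistic. Floors of 3 counts cover counting error only. Scripts were tested on simulated data. DESeq2 1.42.0, limma-voom 3.58.1, other filters and scalings, a stricter rule, a replicate block and omission of each library were alternatives (20 in all).

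Samples of the same replicate number deviated together between si Ctrl and si mH2A1.2 (correlation 0.196 to 0.331 for the 3 pairs). For this reason the block was read beside results of that comparison. The main test used no block, and the labels name no shared batch. The strand setting of the libraries is not given in the sources used here. The members and gene lists were chosen with earlier results of these data known. Named genes were the 10 members, Trp53, Cdkn1a, H2afy and, from each list, the genes called in either knockdown against si Ctrl (at most 6 by adjusted p, or the 2 with the smallest where none was called). One gene that this rule names is not reported here. Sesn1, Ddb2, Xpc, Apaf1, Polk, Ephx1, Tigar, Atr, Cdkn2a, Cd68, Col6a3 and Dcn were named after their values were seen. The same holds for Myog, Tnnt3, Des, Myf5, Ckm, Id1, Id3, Thy1 and Tcf21.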

Additional observations from a re-analysis of the deposited data

How the results depend on the processing

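The p53 target genes called numbered 1 (DESeq2), 2 (replicate block), 2 (DESeq2 with the block) and 2 (unadjusted p) with si mH2A1.1 against si Ctrl, and 1, 1, 2 and 3 with si mH2A1.2; the 5 called between the knockdowns became 1 (Zmat3) under the stricter rule (adjusted p under 0.01, change of 0.8 log2 units or more either way). Leaving out each library gave 0 to 2, 0 to 0 and 2 to 5 called genes. The counts of 25 further targets with si mH2A1.1 were 8 (block), 8 (DESeq2 with the block), 2 (stricter rule) and 11 (unadjusted p). With si mH2A1.2 they were 3 (DESeq2), 2 (block), 5 (DESeq2 with the block), 0 (stricter rule) and 6 (unadjusted p). Between the knockdowns the count was 6 (stricter rule). Under the stricter rule 1.8%, 0.179% and 6.38% of all genes passed in these comparisons. The block gave a share of 20.8% for si mH2A1.1 against control and 5.14% for si mH2A1.2. For DESeq2 these shares were 16.7% and 6.24%, and DESeq2 with the block gave larger ones. For the unadjusted p they were 29.6% and 15.9%. Leaving out each library gave 2 to 8, 0 to 1 and 6 to 10 of these targets. With si mH2A1.1 the count of 8 came without its replicate 2 (14.6% of all genes). In the fits with 2 the share was below the 11.1% of all samples. With si mH2A1.2 the share was below 2.35% in the fits with 0. Between the knockdowns the shares of those fits were given above. H2afy in si mH2A1.2 passed with DESeq2 (-0.39), DESeq2 with the block (-0.40) and the unadjusted p (-0.39), and its difference between the knockdowns (-0.46) did not pass the stricter rule; without single libraries it ranged from -0.97 to -0.78, -0.43 to -0.35 and -0.59 to -0.39.

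The replicate block also brought Bbc3 (adjusted p = 0.0143) and Pmaip1 (0.0459) past the threshold with si mH2A1.1 and Pmaip1 between the knockdowns (0.0254), in fits where 20.8% and 29.0% of all genes passed. For those group pairs the same-number correlations were low, at 0.084 to 0.098 and 0.092 to 0.116. Still, in 18 of 18 cases a sample correlated best with its own number. The sample codes also run in sequence within a number (CT15, KD16 and KD17, then CT33, KD34 and KD35, then CT42, KD43 and KD44). What the codes count is not stated and no shared batch is named, so whether these samples are paired is not settled. With the block the other calls of the 10 genes did not change. Without single libraries the direction of some uncalled log2 fold changes turned: between the knockdowns for Mdm2 (-0.15 to 0.25), Gdf15 (-0.25 to 0.66) and Trp53 (-0.083 to 0.047), with si mH2A1.1 for Bax (-0.092 to 0.13), Gdf15 (-0.50 to 0.24) and Trp53 (-0.014 to 0.11), and with si mH2A1.2 for Bbc3 (-0.081 to 0.19), Pmaip1 (-0.31 to 0.22) and Gdf15 (-0.81 to 0.12). Causes of these changes were not tested, other than that fewer samples enter a fit without a library. With si mH2A1.1, 10 of the 12 cell cycle genes were called with the block (20.8% of all genes), against 2 without it (11.1%). The count was 11 with DESeq2 and the block, where the share was above the 16.7% of DESeq2 alone. At the spread between these samples, the intervals of Gdf15, Pmaip1 and Sesn2 span more than 1 log2 unit.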
